A study of Mus musculus with 6 samples.

Results

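T and NK cell marker genes were followed in the liver of old mice labelled Itpr2KO. The 10 genes are Cd3d, Cd3e and Cd3g of the T cell receptor complex, the coreceptor genes Cd4, Cd8a and Cd8b1, the cytotoxic granule genes Nkg7, Gzma and Gzmb, and Klrb1c, a receptor gene of NK cells. They were chosen by name, with earlier results of these data known. Every probe that maps to one of these symbols was taken: 14 of the 39429 probes on the array. All 10 genes had a probe, and 9 of them were among the 17996 genes tested, since Klrb1c missed the filter on dim probes.

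The 6 arrays came from 3 Itpr2KO mice and 3 wild-type (WT) mice, called KO 1 to KO 3 and WT 1 to WT 3. All were C57Bl/6 mice killed at 23 months, kept in a specific pathogen-free facility and given no treatment, as part of a survival cohort. Itpr2 encodes a channel that releases calcium from the endoplasmic reticulum. The labels state neither how the Itpr2 allele was made nor in which cells it is lost, and whole frozen liver was used, so that RNA of all liver cells and of blood in the organ was measured together.

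T cells recognise antigen through a receptor that signals through the CD3 chains, while the CD4 and CD8 coreceptors bind MHC class II and class I molecules. CD8 T cells and NK cells kill target cells with granules that hold perforin and granzymes. The mouse liver normally holds both T cells and many NK cells, largely within its sinusoids.

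A level is a probe's log2 signal less the 75th percentile of all signals on that array, and a change is the Itpr2KO mean minus the WT mean, with its standard error from limma. The targeted gene had levels of 2.40, 2.23 and 2.06 on KO 1 to KO 3, against 2.90, 2.94 and 2.97 on WT 1 to WT 3, a change of -0.71 ± 0.13. Its probe was still well above background on all 3 KO arrays. All 3 KO arrays lay below all 3 WT arrays for Itpr2, but limma's Benjamini-Hochberg adjusted p was 0.814 and the exact two-sided permutation p was 0.1, the smallest that 3 against 3 arrays allow. The share of probes well above background ran from 57.5% to 59.5% over the arrays. The 75th percentile signal used for scaling was 278.1 on KO 3. On the other arrays it ran from 359.2 on WT 3 to 393.9 on WT 1. The part of this difference in the levels was not tested. Precision is limited by the few arrays. KO 3 and WT 1 stood apart by their muscle transcripts: all 10 skeletal muscle markers were well above background on both, against 3 of 10 on each of the other 4 arrays. Acta1, the skeletal muscle actin, had levels of -5.13, -5.09 and 3.91 on KO 1 to KO 3 and of 3.75, -5.55 and -5.19 on WT 1 to WT 3. The members are therefore also given without KO 3 and without both arrays, and the gene lists without KO 3. Some lists are given without both as well, since WT 1 keeps its muscle RNA when KO 3 alone is left out.

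The CD3 genes had lower mean levels in Itpr2KO liver, but the arrays of the genotypes overlapped. Cd3d, the delta chain, had levels of -2.30, -2.11 and -0.17 on KO 1 to KO 3, against -0.98, -0.81 and -0.41 on WT 1 to WT 3. Cd3e, the epsilon chain, which pairs with each of the others, had levels of -1.34, -1.32 and 0.051 on KO 1 to KO 3, against -0.65, -0.28 and -0.045 on WT 1 to WT 3. Cd3g, the gamma chain, had levels of -2.61, -2.37 and -0.96 on KO 1 to KO 3, against -1.46, -1.46 and -0.84 on WT 1 to WT 3. For all 3 genes KO 1 and KO 2 lay below every WT array, while KO 3 lay above all WT arrays for Cd3d and Cd3e and between them for Cd3g. In whole liver, the number of T cells and the amount of these RNAs per T cell cannot be told apart.

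Cd3d averaged -1.53 ± 1.17 in Itpr2KO and -0.73 ± 0.29 in WT liver (SD, n = 3 each), a change of -0.80 ± 0.56 (SE) with a limma adjusted p of 0.838. Cd3e had a change of -0.55 ± 0.40 (adjusted p = 0.845) and Cd3g of -0.72 ± 0.45 (adjusted p = 0.824), so none of the 3 passed the threshold of 0.05. On slide 1, which held KO 1, WT 1 and WT 2, the differences were -1.40, -0.88 and -1.15 for Cd3d, Cd3e and Cd3g. On slide 2, which held KO 2, KO 3 and WT 3, they were -0.73, -0.59 and -0.82. The SD among Itpr2KO arrays exceeded that among WT arrays for each CD3 gene.

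The CD3 genes are neighbours on chromosome 9 and varied together, so their promoters are printed here. The windows run from 250 bases before the start of the gene to 50 bases after it, 5′ to 3′ on the gene's strand, from RefSeq. Capitals mark the E-box CAGGTG, which E proteins bind, read on either strand as CAGGTG or CACCTG.
Cd3d (GRCm38.p6, chr9:44981536-44981835, plus strand): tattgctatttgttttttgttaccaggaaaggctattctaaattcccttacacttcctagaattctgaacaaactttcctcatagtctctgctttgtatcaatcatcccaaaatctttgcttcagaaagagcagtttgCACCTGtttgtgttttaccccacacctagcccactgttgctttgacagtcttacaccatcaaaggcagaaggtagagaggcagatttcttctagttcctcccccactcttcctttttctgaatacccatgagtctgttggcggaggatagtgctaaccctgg
Cd3e (GRCm38.p6, chr9:45009562-45009861, minus strand): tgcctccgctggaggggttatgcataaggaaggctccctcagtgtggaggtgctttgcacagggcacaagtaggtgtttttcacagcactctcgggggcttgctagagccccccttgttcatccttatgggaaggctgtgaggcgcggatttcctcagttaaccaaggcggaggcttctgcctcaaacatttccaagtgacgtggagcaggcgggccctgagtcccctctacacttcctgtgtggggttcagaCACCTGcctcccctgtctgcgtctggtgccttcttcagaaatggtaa
Cd3g (GRCm38.p6, chr9:44980382-44980681, minus strand): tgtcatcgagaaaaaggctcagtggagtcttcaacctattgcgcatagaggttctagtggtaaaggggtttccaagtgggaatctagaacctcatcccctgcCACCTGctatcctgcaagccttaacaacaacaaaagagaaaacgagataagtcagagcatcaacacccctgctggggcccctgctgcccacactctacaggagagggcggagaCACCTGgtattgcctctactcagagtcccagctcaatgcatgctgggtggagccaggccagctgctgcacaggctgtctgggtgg
All 3 windows hold the E-box: counted from the start of the gene, with negative positions before it, the match begins at -112 in Cd3d, at 4 in Cd3e, and at -148 and -35 in Cd3g. The 6 letters also occur in 20.2% of all 32851 promoter windows in the table. Of the 8 members with a window, Gzma is the fourth that holds the E-box. The GATA motif AGATAA was found in Cd3g, against 11.2% of all windows, and the TCF motif CTTTGAA in none of the 8, against 5.14%. These are matches of letters, not sites shown to be bound.

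**Figure D1:**
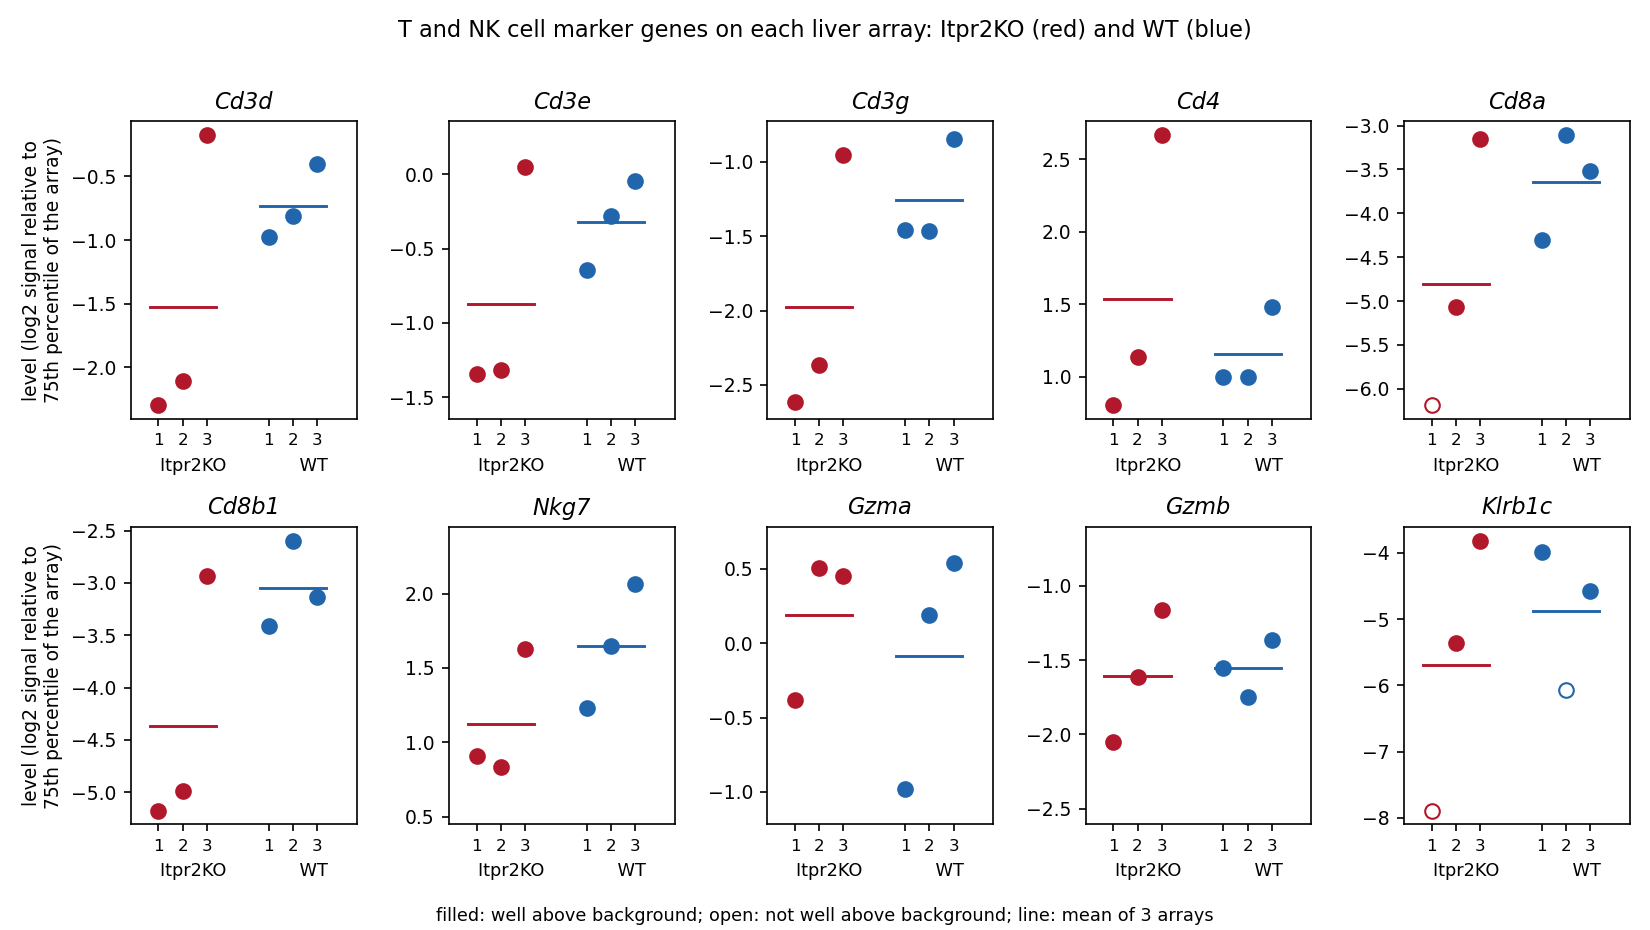
Level of each T and NK cell marker gene on every array, as log2 signal relative to the array's 75th percentile, with Itpr2KO arrays 1 to 3 left of WT arrays 1 to 3 and a line at each mean of 3 arrays. Filled points are well above background and open points are not. KO 1 and KO 2 lie below all WT arrays for Cd3d, Cd3e, Cd3g, Cd8a, Cd8b1 and Nkg7, and KO 3 does not.

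The genes of the CD8 coreceptor had the lowest changes among the members. Cd8b1, the beta chain, had levels of -5.18, -4.99 and -2.93 on KO 1 to KO 3, against -3.42, -2.59 and -3.13 on WT 1 to WT 3. Its means were -4.37 ± 1.25 in Itpr2KO and -3.05 ± 0.42 in WT liver (SD, n = 3 each), a change of -1.32 ± 0.61 with a limma adjusted p of 0.814. KO 3 lay within the WT range and KO 1 and KO 2 lay below it.

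Cd8a, the alpha chain, had levels of -6.19, -5.07 and -3.15 on KO 1 to KO 3, against -4.30, -3.11 and -3.52 on WT 1 to WT 3. The probe was not well above background on KO 1, so its level there is only a bound, and the change of -1.16 ± 0.76 (limma adjusted p = 0.835) rests partly on it. A second Cd8a probe was well above background on 1 Itpr2KO array and 2 WT arrays, and its mean was also lower in Itpr2KO. Within slides, Cd8a differed by -2.48 on slide 1 and -0.59 on slide 2, and Cd8b1 by -2.17 and -0.83. NK cells as a rule lack the CD8 beta chain, and some mouse dendritic cells carry the alpha chain.

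Cd4, the coreceptor of helper T cells, did not share this order. Its levels were 0.80, 1.13 and 2.67 on KO 1 to KO 3, against 1.00, 1.00 and 1.48 on WT 1 to WT 3. KO 3 was the highest of the 6 arrays, KO 1 the lowest, and KO 2 lay among the WT arrays. The change was 0.38 ± 0.48 (limma adjusted p = 0.897), with -0.19 within slide 1 and 0.42 within slide 2. A second Cd4 probe did not stand well above background on any of the 6 arrays, so the pair of Cd4 probes disagreed on whether the gene was detected.

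The granule genes differed in which arrays were low. Nkg7, a granule membrane protein of NK and cytotoxic T cells, had levels of 0.91, 0.83 and 1.63 on KO 1 to KO 3, against 1.23, 1.65 and 2.06 on WT 1 to WT 3. KO 1 and KO 2 lay below all WT arrays and KO 3 just below WT 2. The means were 1.12 ± 0.44 in Itpr2KO and 1.65 ± 0.42 in WT liver (SD, n = 3 each), a change of -0.52 ± 0.30 with a limma adjusted p of 0.819. A second Nkg7 probe had levels of -2.01, -2.15 and -0.83 on KO 1 to KO 3, against -1.41, -0.32 and 0.082 on WT 1 to WT 3. On that probe too, KO 1 and KO 2 were the lowest arrays and KO 3 lay within the WT range.

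Gzma and Gzmb encode granule proteases that enter the target cell. Gzma had levels of -0.38, 0.50 and 0.45 on KO 1 to KO 3, against -0.98, 0.19 and 0.54 on WT 1 to WT 3. The lowest and the highest Gzma arrays were both WT, and the change was 0.27 ± 0.44 (limma adjusted p = 0.925). Gzmb had levels of -2.05, -1.62 and -1.16 on KO 1 to KO 3, against -1.55, -1.75 and -1.36 on WT 1 to WT 3. Both the lowest and the highest Gzmb arrays were Itpr2KO, and the change was -0.055 ± 0.25 (adjusted p = 0.979). Within slides, Gzma differed by 0.013 and -0.063 and Gzmb by -0.40 and -0.024 on slides 1 and 2.

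Klrb1c, whose product carries the NK1.1 antigen of C57Bl/6 NK cells, was not tested. Its brighter probe had levels of -7.89, -5.36 and -3.82 on KO 1 to KO 3, against -3.98, -6.06 and -4.57 on WT 1 to WT 3. KO 1 and WT 2 were not well above background, and the genotypes overlapped. The other Klrb1c probe was well above background on WT 1 alone.

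The promoters of Nkg7 and Gzmb are shown because these granule genes differed in their order of arrays while both windows hold the RUNX motif. Capitals mark TGTGGT, read on either strand as TGTGGT or ACCACA, in the same RefSeq windows.
Nkg7 (GRCm38.p6, chr7:43436888-43437187, plus strand): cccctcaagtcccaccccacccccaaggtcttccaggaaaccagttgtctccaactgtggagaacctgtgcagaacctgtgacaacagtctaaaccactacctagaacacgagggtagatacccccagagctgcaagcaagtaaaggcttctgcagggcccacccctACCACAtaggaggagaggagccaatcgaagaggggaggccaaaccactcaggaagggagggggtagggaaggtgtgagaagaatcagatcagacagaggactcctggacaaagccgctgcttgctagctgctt
Gzmb (GRCm38.p6, chr14:56262285-56262584, minus strand): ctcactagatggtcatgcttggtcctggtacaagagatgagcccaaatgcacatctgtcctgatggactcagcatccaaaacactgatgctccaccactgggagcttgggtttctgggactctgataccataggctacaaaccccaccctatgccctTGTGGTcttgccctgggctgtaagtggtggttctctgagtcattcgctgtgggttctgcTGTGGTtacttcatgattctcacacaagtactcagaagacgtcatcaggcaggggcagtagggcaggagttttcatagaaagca
Counted in the same way, the match begins at -83 in Nkg7 and at -93 and -34 in Gzmb. Gzma and Klrb1c hold it as well, which makes 4 of 8 members, against 16.8% of all windows. The NFAT motif GGAAAA was found in Gzma, against 23.4% of all windows, and the ETS motif CCGGAA in none of the 8, against 14.9%. The motifs were looked for with the members known, and no test was made.

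Across the 9 members tested, 0 passed the adjusted threshold, against 0.00556% of all genes, and 0 had an unadjusted limma p under 0.05, against 6.04%. The mean was lower in Itpr2KO for 7 of the 9, against 48.6% of all genes, and the median change was -0.55, against 0.0077 over all genes. Cd8a, among the 7, passed the filter through its WT arrays only. Among genes well above background on all 6 arrays, 6 of 8 members were lower. Their median was then -0.53, against 0.0072 over all genes. With normexp background correction, the mean was lower for 1 of the 9 and their median stood at 0.24, while the median of all genes was 0.14. That setting gave 5903 of all genes an unadjusted limma p under 0.05, against 1087 in the main fit. With the lowest 0.1% of spots left out of normexp's fit, chosen after the data were seen, 6 of the 9 were lower. Their median was then -0.27 and that of all genes 0.067. The genotypes overlapped for all 9, while 11.8% of genes measured on every array did not overlap, 5.66% being lower and 6.11% higher on all Itpr2KO arrays. Exact two-sided permutation p values of single members ran from 0.2 for Nkg7 to 0.9 for Gzmb.

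**Figure D2:**
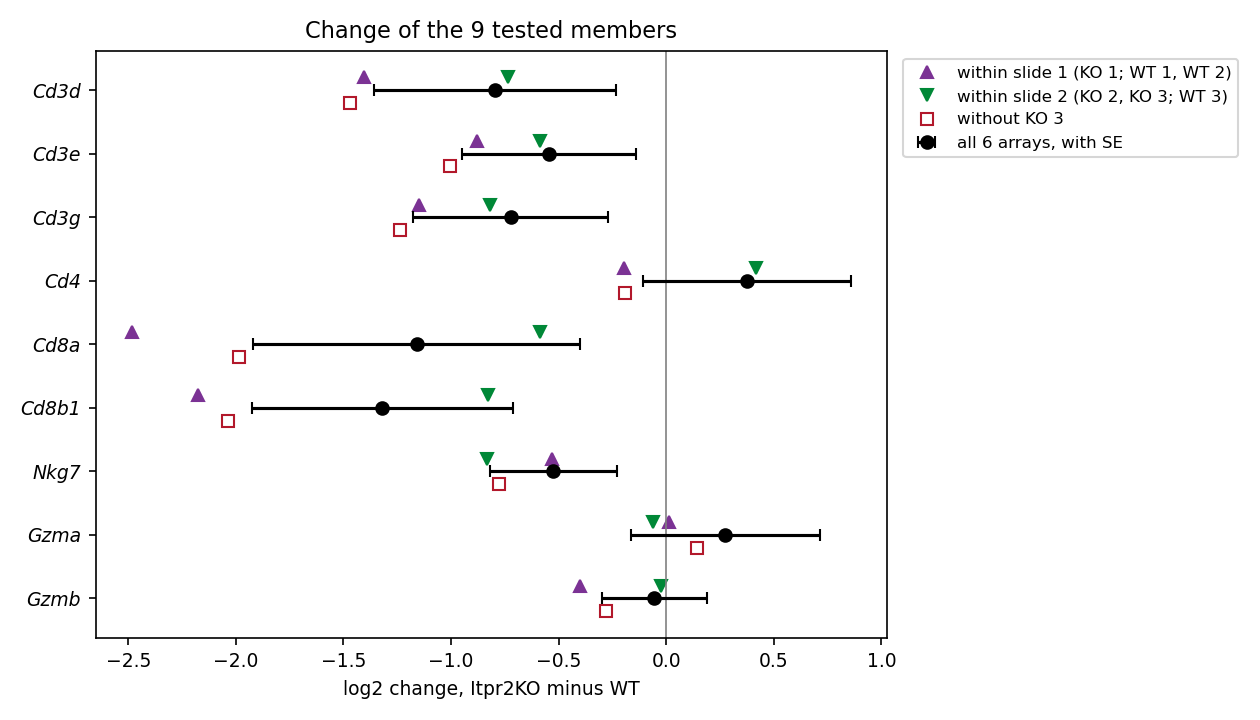
Log2 change, Itpr2KO minus WT, of the 9 members tested, over all 6 arrays with its standard error (circles), within each slide (triangles) and without KO 3 (squares). Over all arrays the changes run from -1.32 for Cd8b1 to 0.38 for Cd4, and without KO 3 those of the CD3 and CD8 genes run from -2.04 to -1.01.

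The size of these changes depended on KO 3. Without it, 8 of the 9 members had a lower mean in Itpr2KO, against 51.2% of all genes, and the median change was -1.01. The changes then were -1.47 ± 0.21 for Cd3d, -1.01 ± 0.20 for Cd3e, -1.24 ± 0.24 for Cd3g, -1.99 ± 0.47 for Cd8a, -2.04 ± 0.26 for Cd8b1 and -0.78 ± 0.26 for Nkg7. Cd8a passed the filter through its WT arrays only, and its KO 1 level is a bound, so its change and error rest partly on that bound. The 6 genes just given had unadjusted limma p values under 0.05, against 4.92% of all genes in that direction. The lowest adjusted p among them was 0.275, for Cd8b1. Cd4 turned to -0.19 ± 0.21, Gzma stood at 0.14 ± 0.52 and Gzmb at -0.28 ± 0.20. KO 3 was the Itpr2KO array on which the members were highest on average. With each of the other arrays left out in turn instead, 0 of the 9 members had an unadjusted limma p under 0.05. In those fits 667 to 1686 of the 17996 genes did, in either direction.

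With both muscle-bearing arrays left out, 9 of 9 members had a lower mean in Itpr2KO, against 51.9% of all genes. The median change was then -1.17 and 6 members had an unadjusted limma p under 0.05, against 3.92% of genes in that direction. The lowest adjusted p was 0.467. KO 3 also had the highest mean level of fat cell markers, at 2.00 after each gene was centred on its 6 arrays. That level was -1.99 on KO 1 and 0.32 on KO 2, and 0.46, -0.089 and -0.71 on WT 1 to WT 3. The summed signal of these markers was not highest on KO 3, at 78.3. It was 27.7 on KO 1, 168.0 on KO 2 and 116.9 to 164.7 on the WT arrays. The part of muscle and fat RNA in the member values was not tested.

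The members were alike to different degrees. Centred on its own mean and averaged over the 9 genes, their level was -0.92, -0.55 and 0.72 on KO 1 to KO 3, against -0.11, 0.32 and 0.54 on WT 1 to WT 3. Pearson's r with that mean over the 6 arrays was 0.983 for Cd3e, 0.978 for Cd3d, 0.963 for Cd8a, 0.962 for Cd3g, 0.916 for Cd8b1, 0.898 for Nkg7, 0.821 for Gzmb, 0.712 for Cd4 and 0.439 for Gzma. Each gene is part of the mean it is set against, and the arrays share their scaling, so these are descriptions.

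Of 13571 other named genes, the 10 whose levels followed that mean most closely had r between 0.974 and 0.993. They were Cd2, a T and NK cell adhesion receptor, Cd7, a T and NK cell surface protein, Tmsb10, an actin-binding peptide, Lat, the scaffold of T cell receptor signalling, Cd28, the T cell costimulator, Rab19, a small GTPase, Cd96, a T and NK cell receptor, Mea1, Nkx2-6, a homeobox factor, and Sf3a2, a splicing factor. The lists of T and NK cell genes described next hold 4 of these 10. Those lists have 74 genes tested in all, and the mean that was followed is itself made of T and NK cell genes.

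Most other genes of T and NK cells also had a lower mean in Itpr2KO, and none passed the test. Of 30 genes of T cell receptor signalling and T cell identity, 26 were tested. The mean was lower in Itpr2KO for 23 of the 26, against 48.6% of all genes. Of the 26, 0 passed the adjusted threshold, against 0.00556% of all genes. The median change was -0.50, or -1.01 without KO 3. Cd6, a receptor that tunes T cell activation, had a change of -1.38 ± 0.66, and Rasgrp1, which links the receptor to Ras, of -0.47 ± 0.23. Bcl11b, a transcription factor that keeps T cell identity, had a change of -1.01 ± 0.49, but it was well above background on only 1 of 3 Itpr2KO arrays, so its levels on the others are bounds. Cd2 had levels of -1.36, -0.98 and 0.66 on KO 1 to KO 3, against -0.31, 0.12 and 0.21 on WT 1 to WT 3. KO 1 and KO 2 were lowest and KO 3 was highest, the order also seen for Cd3d and Cd3e. Thy1, a T cell surface protein, had a change of -0.50 ± 0.54, and Zap70, the kinase that binds phosphorylated CD3 chains, of 0.17 ± 0.24. The WT mean of Zap70 was 3.92, against -0.32 for Cd3e, the highest of the CD3 genes. Which cells gave the Zap70 signal was not tested.

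Of 25 genes of T cell subsets and checkpoints, 16 were tested. The mean was lower in Itpr2KO for 12 of the 16, against 48.6% of all genes. The median change was -0.35, or -0.52 without KO 3. Cd44, an adhesion receptor high on memory T cells, had levels of 0.49, 0.28 and 0.63 on KO 1 to KO 3, against 1.38, 0.78 and 0.90 on WT 1 to WT 3. All 3 KO arrays were below all WT arrays for Cd44, a change of -0.55 ± 0.20 with a limma adjusted p of 0.814. In this list 1 of the 16 genes tested showed that order, against 5.66% of all genes. Ifng, the interferon of T and NK cells, had a change of -1.08 ± 0.59, which rests partly on a bound, since it was well above background on 2 of 3 Itpr2KO arrays. S1pr1, which guides T cells out of tissue, had a change of 0.18 ± 0.22. Its WT mean was 1.60, and which cells gave that signal was not tested.

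Of 36 NK cell and cytotoxic effector genes, 21 were tested. The mean was lower in Itpr2KO for 18 of the 21, against 48.6% of all genes. The median change was -0.35, or -0.67 without KO 3. Ccl5, a chemokine made by cytotoxic T and NK cells, had levels of 0.93, 1.41 and 3.00 on KO 1 to KO 3, against 2.21, 3.67 and 3.78 on WT 1 to WT 3. KO 3 was above WT 1, so the arrays overlapped, and the change was -1.44 ± 0.64 with a limma adjusted p of 0.814. Tyrobp, a signalling adaptor of NK and myeloid receptors, had levels of 3.46, 2.85 and 3.486 on KO 1 to KO 3. On WT 1 to WT 3 its levels were 4.04, 3.495 and 3.98, a change of -0.57 ± 0.24. All 3 KO arrays lay below all WT arrays, but KO 3 and WT 2 barely differed. In this list 1 of the 21 genes tested showed that order, against 5.66% of all genes. Fasl, the death receptor ligand, had levels of -4.80, -5.14 and -3.38 on KO 1 to KO 3, against -3.74, -3.70 and -2.88 on WT 1 to WT 3, with KO 3 inside the WT range. Srgn, the granule proteoglycan, had a change of -0.12 ± 0.13.

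**Figure D3:**
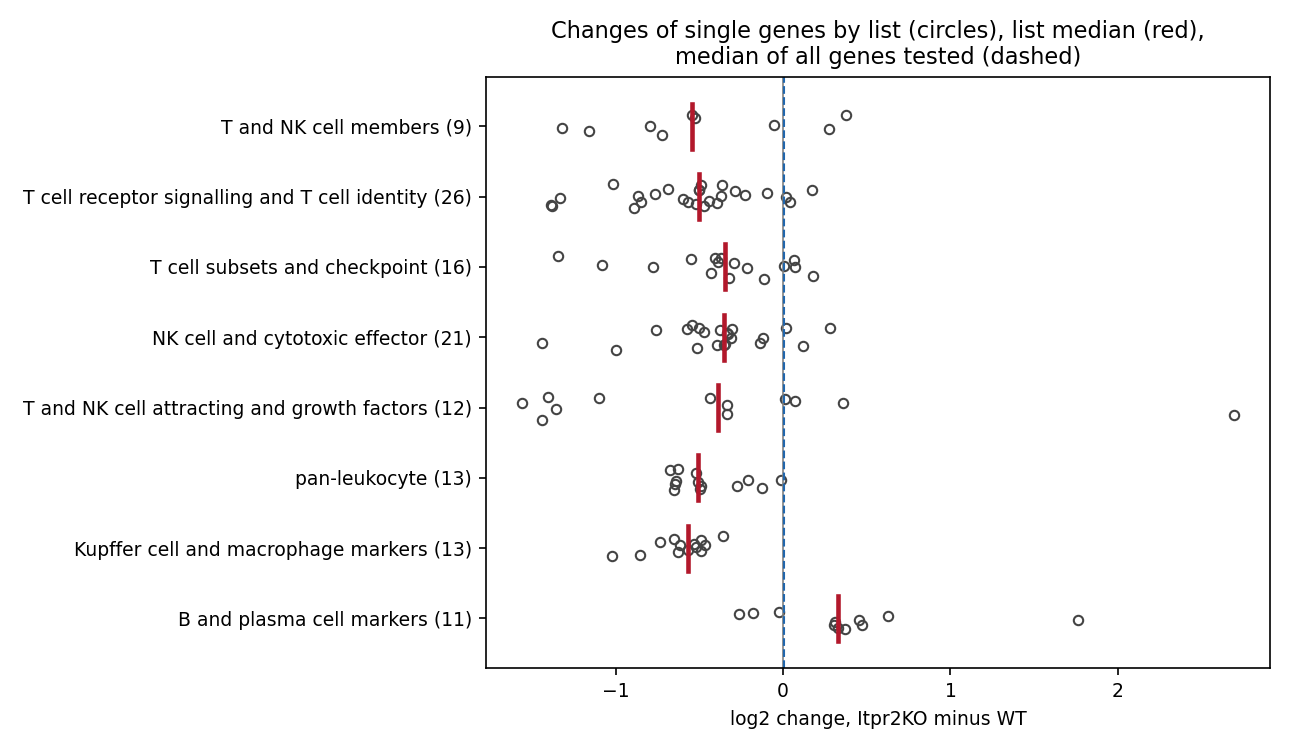
Log2 changes, Itpr2KO minus WT, of the genes tested in each gene list, with 1 circle per gene, a red line at the list's median and a dashed line at the median of all genes tested. The medians of the 4 lists of T and NK cell genes lie between -0.50 and -0.35, the chemokines include the lowest values, and the point at 2.70 is Cx3cl1.

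Of 17 factors that attract T and NK cells or support their growth, 12 were tested, and 4 of them had an unadjusted limma p under 0.05 with a lower mean in Itpr2KO, against 2.90% of all genes in that direction. The median change of the 12 was -0.39, or -0.95 without KO 3. Ccl3, an inflammatory chemokine, had levels of -4.59, -4.33 and -3.10 on KO 1 to KO 3, against -2.69, -2.22 and -2.43 on WT 1 to WT 3, a change of -1.56 ± 0.39. Cxcl10, which draws cells through CXCR3, had levels of -0.18, 0.97 and 1.06 on KO 1 to KO 3, against 1.38, 2.37 and 2.16 on WT 1 to WT 3, a change of -1.36 ± 0.41. Cxcl9, another interferon-induced ligand of that receptor, had levels of 0.88, 1.92 and 2.39 on KO 1 to KO 3, against 2.41, 2.94 and 3.14 on WT 1 to WT 3, a change of -1.10 ± 0.41. For these 3 chemokines, and for Cxcl16 in the same list, every KO array was below every WT array, KO 3 included, while 5.66% of all genes showed this order. Ccl3, Cxcl10 and Cxcl9 were named for their small p, and Cxcl16, with a change of -0.34 ± 0.16, was named after its values were seen. Ccl4, a chemokine closely related to Ccl3, overlapped, with a change of -1.40 ± 0.47. Limma's adjusted p was 0.814 for each of these 4 genes, so none passed the threshold. Il15ra, which presents the NK cell growth factor IL-15, had a change of 0.36 ± 0.32. Cx3cl1, chosen after its values were seen, had a level of 6.59 on KO 1, against -2.35 to -1.35 on the other 5 arrays, and it raises the summed signal of the list there.

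Taken once each, the genes of these 4 lists had a lower mean in Itpr2KO for 60 of the 74 tested, or 81.1%, against 48.6% of all genes, and a median change of -0.39. None passed the adjusted threshold, and 5 had an unadjusted limma p under 0.05, all lower in Itpr2KO, against 2.90% of all genes in that direction. Cd44 and the 4 chemokines Ccl3, Cxcl10, Cxcl9 and Ccl4 make up these 5. Without KO 3, 67 of the 74 were lower, 40 of them with an unadjusted limma p under 0.05, against 4.92% of all genes, and 0 passed the adjusted threshold. With WT 1 also left out, 63 of the 74 were lower, against 51.9% of all genes, with a median of -0.72. Many of the 60 lower genes were well above background on all WT arrays but not on all Itpr2KO arrays. Among them were Bcl11b, Cd27, Gata3, Grap2, Sit1, Ifng, Ikzf2, Pdcd1, Cd69, Slamf7, Klra8 and Klrc1. They passed the filter only through WT, where they were higher. The counts and medians of these lists, with and without KO 3, are therefore not free of that filter. Klra7, also lower, passed through Itpr2KO only. Cd247, the zeta chain that signals for CD3, Ncr1, an NK cell receptor, and Ctla4, a checkpoint receptor, reached a signal well above background on 0 of the 6 arrays. The 4 lists overlap with the members in their cell types and share the same arrays, so they are not independent of them.

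Markers of other cell types were read on the same arrays. The mean was lower in Itpr2KO for 13 of 13 pan-leukocyte genes, against 48.6% of all genes, with a median change of -0.51. Their summed signal, relative to the 75th percentile, was 16.2 to 36.0 in Itpr2KO and 25.4 to 33.4 in WT. The mean was also lower for 13 of 13 Kupffer cell and macrophage markers, with a median change of -0.57. Their summed signals were 124.0 to 170.4 in Itpr2KO and 165.8 to 306.9 in WT. An unadjusted limma p under 0.05 with a lower mean was found for 4 pan-leukocyte and 6 Kupffer cell genes, against 2.90% of all genes. In each list 3 genes were lower on every Itpr2KO array than on any WT array, against 5.66%. Without KO 3 the mean was lower for 13 of 13 in both lists, against 51.2% of all genes, with medians of -0.73 and -0.66. The unadjusted limma p was then under 0.05 for 9 and 2 of them, against 4.92%. A lower mean was thus not particular to the T and NK cell genes. Cd5l, a secreted Kupffer cell protein, had a change of -0.74 ± 0.22, with no overlap of the arrays. Their part in the T and NK cell values was not tested.

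Dendritic cell markers had a lower mean for 6 of 9 genes, against 48.6% of all genes, with a median change of -0.33. Their summed signals were 35.2 to 45.2 in Itpr2KO and 40.6 to 62.6 in WT. MHC class I presentation genes, which CD8 T cells and NK cells read, had a lower mean for 10 of 11 genes, with a median change of -0.16. Without KO 3 the counts were 7 of 9 and 11 of 11, against 51.2% of all genes, with medians of -0.55 and -0.17. Of the B and plasma cell markers 3 of 11 were lower on average in Itpr2KO, with a median of 0.33. Without KO 3 that direction turned, with 8 of 11 lower and a median of -0.21. With WT 1 also left out it turned back, to 3 of 11 lower and a median of 0.25. After centring, their mean level was -0.20, -0.26 and 1.02 on KO 1 to KO 3, against 0.39, 0.34 and -1.29 on WT 1 to WT 3. KO 1 and KO 2 lay below WT 1 and WT 2, as for the CD3 genes, while WT 3 was the lowest array. Their summed signals were 3.97 to 16.7 in Itpr2KO and 1.70 to 7.04 in WT.

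Neutrophil markers had a lower mean for 1 of 10 genes, against 48.6% of all genes, with a median change of 0.72. KO 1 and KO 2, alike in their CD3 genes, were the highest and lowest arrays for these markers, at 1.63 and -1.69 after centring. Hepatocyte markers had a lower mean for 1 of 10 genes, with a median change of 0.16 and summed signals of 1058.9 to 1435.1 in Itpr2KO and 1004.3 to 1172.2 in WT. Without KO 3 the counts were 2 and 3 of 10, with medians of 0.31 for neutrophil and 0.14 for hepatocyte markers. Fat cell markers had a lower mean for 3 of 6 genes with a median of 0.30, exocrine pancreas markers for 1 of 5 with 0.29 and skeletal muscle markers for 1 of 3 with 0.20. Without KO 3 all these medians turned, to -0.83 with 6 of 6 fat genes lower, -0.022 with 3 of 5 pancreas genes lower and -2.78 with 2 of 3 muscle genes lower. WT 1 was then the only array left with all 10 muscle markers well above background. With WT 1 also left out, the medians were -0.27 with 4 of 6 fat genes lower and -0.097 with 3 of 5 pancreas genes lower. The muscle median was then 0.26, with 1 of 3 genes lower.

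**Figure D4:**
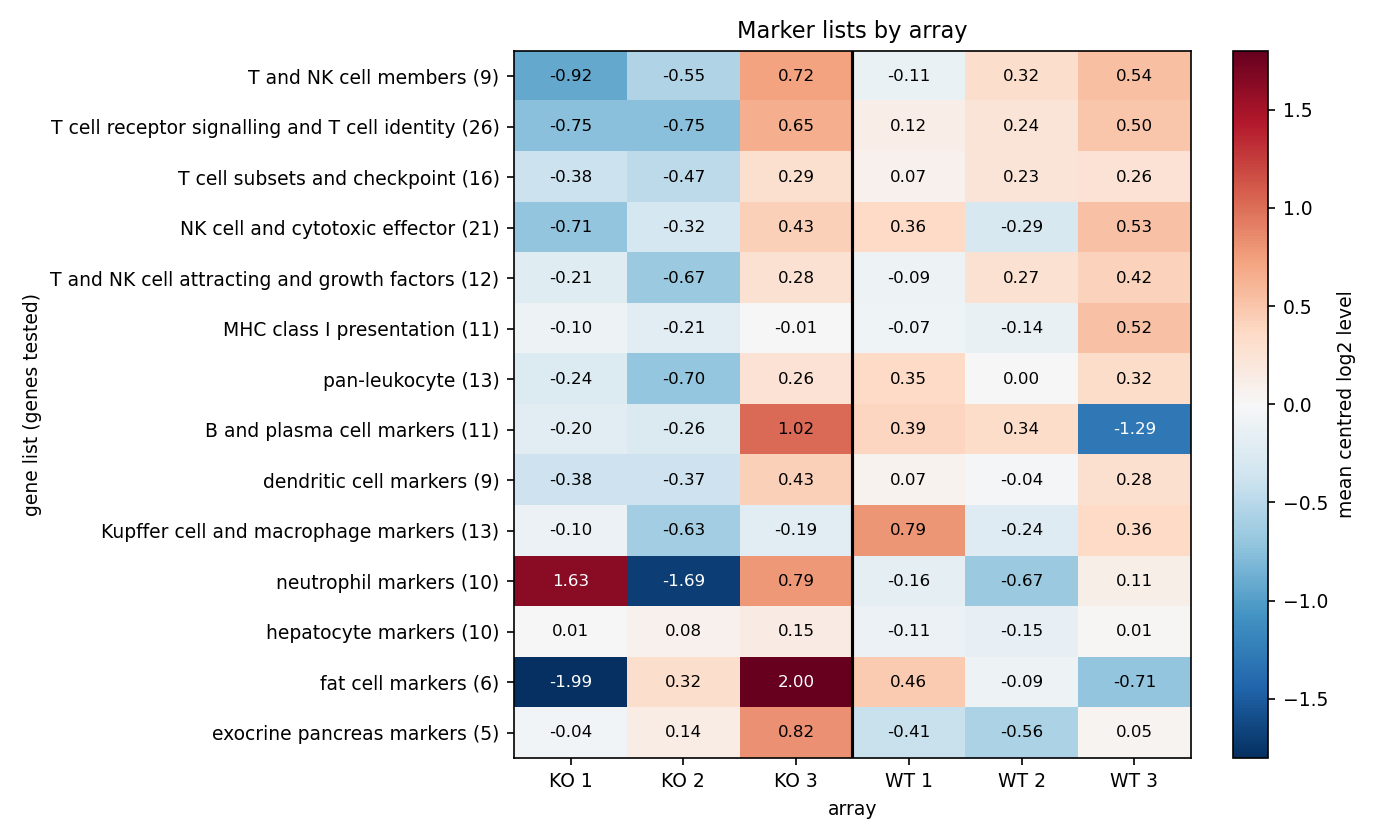
Mean level of each gene list on every array after each gene was centred on its 6 arrays, with KO arrays left of WT arrays. The T cell receptor list stands at -0.75 on KO 1 and KO 2 and at 0.65 on KO 3, while the neutrophil markers stand at 1.63 on KO 1 and -1.69 on KO 2.

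By genome position, 4 of the 10 members, Cd4, Cd8a, Cd8b1 and Klrb1c, lie on chromosome 6, as does Itpr2 itself, 3 lie on chromosome 9, and Nkg7, Gzma and Gzmb lie on chromosomes 7, 13 and 14. The lower levels on KO 1 and KO 2 were seen in genes on chromosomes 6, 7 and 9.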

How the data were processed

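Cy3-labelled liver RNA of 3 Itpr2KO and 3 WT mice was measured on 1-colour Agilent arrays, per the labels. The deposited scanner tables hold intensity values, which Agilent Feature Extraction background-subtracted, per the file headers, in version 11.5.1.1 there and 10.7.3.1 per the submitters' processing notes. The authors also deposited a table of log2 values, used as an alternative. Its columns named for KO 2 and KO 3 match the scanner values of KO 3 and KO 2, so the scanner tables name the arrays here.

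Processed intensities were put on the log2 scale, and the array's 75th percentile was subtracted. Of 44397 spots per array, 1377 control spots were left out, as were 818 spots marked as outliers in all, and spots of a probe were averaged. Of 39429 probes, 28330 were given 1 symbol through a RefSeq gene table of GRCm38.p6, 0 several and 11099 none. That table served for names and chromosomes, and the promoter windows, from the same assembly, covered 8 of the 10 members. A gene was tested if a probe exceeded background clearly, by the software's own mark, on all 3 arrays of a genotype, and its brightest such probe stood for it. Genotypes were compared with limma 3.58.1 in R 4.3.3 (lmFit, eBayes, two-sided), with Benjamini-Hochberg adjustment over 17996 genes and a threshold of 0.05. The procedure was tested on simulated data.

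The members and gene lists were chosen with earlier results of these data known. Genes named are the members, from each of the 4 lists of T and NK cell genes the 3 with the smallest unadjusted p and the 3 with the highest level, up to 3 of the brightest genes of other lists, and the 10 genes most like the members. Some of these genes are not reported here. The mice were independent animals, per the series design. Each slide, scanned on its own, held both genotypes, so slide-wise values are given. The same replicate numbers in both genotypes did not pair the arrays: deviations of same-numbered arrays from their genotype means correlated at -0.19, 0.042 and -0.28.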

Additional observations from a re-analysis of the deposited data

How the results depend on the processing

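The 19 alternatives comprised 17 chosen with the design and 2 chosen after seeing the data, a normexp fit without the lowest 0.1% of spots and leaving out both KO 3 and WT 1. The count of members and of genes in the 4 T and NK cell lists past the adjusted threshold was 0 under all 19. The count over all genes was 1, and it was 0 under normexp, under normexp without the lowest spots, with genes well above background on all 6 arrays, with the trended and robust prior and with both muscle-bearing arrays left out, and 0 to 1 with each array left out in turn. With the replicate block it was also 0, and the block left the members' median at -0.55, with numbers that do not pair the arrays. The members' median of -0.55 ran from -1.01 to -0.38 with each array left out, was -1.17 without both muscle-bearing arrays and turned to 0.24 under normexp. Normexp moved the median of all genes to 0.14, and under it the changes were 0.13 for Cd3d, 0.16 for Cd3e, 0.41 for Cd3g, 1.14 for Cd8a, 0.92 for Cd8b1 and 0.55 for Gzmb. With the lowest 0.1% of spots left out of that fit, the members' median was -0.27 and Gzmb stood at 0.036; the cause was not tested. Cd4 ran from -0.19 without KO 3 to 0.74 without KO 1, and was -0.27 without both muscle-bearing arrays. Gzma turned to -0.025 with the slide as a block and -0.30 without both muscle-bearing arrays, and ran from -0.17 without WT 1 to 0.59 without WT 3. Gzmb was 0.041 without WT 3 and ran from -0.28 without KO 3 to 0.17 without KO 1. Nkg7 kept its direction under all 19, from -0.99 to -0.32. Cd8a could not be fitted among genes well above background on all 6 arrays. With the slide as a block, the changes were -1.07, -0.73 and -0.98 for Cd3d, Cd3e and Cd3g and -1.50 for Cd8b1. Signal near background limits Cd8a, Klrb1c, Bcl11b and Ifng, and 3 arrays per genotype limit every member.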
